A study of Homo sapiens with 24 samples.

Results

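Homologous recombination and the Fanconi anaemia pathway were followed through 34 genes in 2 human cancer cell lines exposed to 3 herb extracts. The genes were taken by name as a pathway list, with no measured value in the rule, and all 34 were present among the 14585 genes of the count table. A549 is a lung carcinoma line with wild-type p53, and Huh7 is a hepatocellular carcinoma line with mutant p53. Each line was sequenced as control cells, as cells given an extract of Pulsatilla chinensis (a root herb), as cells given an extract of Bupleurum chinense and as cells given an extract of Polyporus umbellatus (a fungus), with 3 libraries in each of the 8 groups and 24 libraries in all. All samples carried the genotype label WT. The extracts were made with ethanol and dissolved in DMSO, and the sources used here do not give the dose or time for the sequenced cells, nor whether the control cells received DMSO. The study asked what each herb changes in the transcriptome of each line. Nothing in the labels says that the 3 libraries of a group came from separate cultures, so p-values measure the spread between these libraries, which may be technical.

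Homologous recombination mends a broken chromosome by copying the intact sister, and so it works mainly in cells that are replicating or have replicated their DNA. The break is first cut back to single-stranded ends (resection), these ends are then brought to invade the sister (strand exchange), and the joined molecules are finally taken apart. The Fanconi pathway detects cross-links between the strands of DNA at a stalled fork, attaches ubiquitin to the FANCI-FANCD2 pair and hands the break that follows to recombination. Many of these genes are transcribed in step with the cell cycle, under E2F factors among others.

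The libraries held 6803704 to 24345541 counts, with a median of 10515192. The lines matched their labels by the hepatocyte genes: albumin (ALB) reached at least 2751 CPM (counts scaled to a library total of 1000000, after TMM scaling of the libraries) in every Huh7 library and at most 0.714 CPM in any A549 library. The lung epithelial genes did not mark A549 as a group. Keratin 7 (KRT7) lay between 1553 and 1774 CPM in A549 and at most 0.123 CPM in Huh7, and keratin 18 (KRT18) lay between 1846 and 2420 CPM in A549 and between 1039 and 1721 CPM in Huh7. The adhesion gene EPCAM was lower in A549, at 0.441 to 5.40 CPM against 6.75 to 10.75 CPM in Huh7. The surfactant gene SFTPB was at 1.05 to 2.75 CPM in A549 and 2.12 to 5.16 CPM in Huh7, and SFTPA1, SFTPC and NKX2-1 had no match by name in the count table. Huh7 P. umbellatus replicate 2 stood apart from the other libraries of its group. The median squared difference per gene from its companions was 13.3 and 17.6 times that of read sampling alone, against 5.36 between those companions and 2.74 to 4.29 within the other 7 groups. Calls of single genes in that group and counts of calls in comparisons with that group are given with and without that library. The other values of the group are given with it unless stated. The main fits of the other Huh7 comparisons shared their estimate of the spread with that library, and were not repeated with it alone left out.

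Promoters of 6 of the genes are shown to set those whose RNA changed with the least doubt beside those with the least evidence of change. POLQ, EXO1 and FANCD2 had the lowest p of the genes in A549 cells with P. chinensis, and FANCF, MUS81 and FANCE the highest. Each sequence is the RefSeq window of GRCh38.p14 on the strand of the gene, 5′ to 3′, with 250 bases before the RefSeq start site and, where a marked word reaches past that site, on to the end of the word. Capitals mark the words searched on both strands: 4 E2F words (TTTCCCGC, TTTCGCGC, TTTGCCGC or TTTGGCGC), the cell cycle homology word TTTGAA, and CCAAT.
POLQ (chr3:121545980-121546238, minus strand): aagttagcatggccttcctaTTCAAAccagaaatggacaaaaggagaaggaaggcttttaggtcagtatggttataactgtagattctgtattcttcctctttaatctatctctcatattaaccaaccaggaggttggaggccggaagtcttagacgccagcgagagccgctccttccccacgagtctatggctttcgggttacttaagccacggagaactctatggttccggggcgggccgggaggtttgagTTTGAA
EXO1 (chr1:241847954-241848215, plus strand): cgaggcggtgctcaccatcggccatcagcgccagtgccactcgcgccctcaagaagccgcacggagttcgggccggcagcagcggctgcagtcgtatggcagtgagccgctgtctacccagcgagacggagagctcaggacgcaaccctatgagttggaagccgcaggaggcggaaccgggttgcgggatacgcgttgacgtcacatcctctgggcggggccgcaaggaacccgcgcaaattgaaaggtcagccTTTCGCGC
FANCD2 (chr3:10026187-10026442, plus strand): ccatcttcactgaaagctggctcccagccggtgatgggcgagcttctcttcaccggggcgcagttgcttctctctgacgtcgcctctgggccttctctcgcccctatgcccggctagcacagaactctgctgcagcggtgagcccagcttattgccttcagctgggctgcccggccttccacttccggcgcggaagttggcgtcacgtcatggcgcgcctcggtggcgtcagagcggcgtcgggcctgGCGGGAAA
FANCF (chr11:22625824-22626073, minus strand): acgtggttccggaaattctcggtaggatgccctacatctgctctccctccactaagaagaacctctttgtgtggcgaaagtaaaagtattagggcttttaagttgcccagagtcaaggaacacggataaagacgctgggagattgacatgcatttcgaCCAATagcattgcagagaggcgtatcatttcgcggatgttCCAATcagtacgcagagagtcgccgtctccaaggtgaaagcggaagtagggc
MUS81 (chr11:65860183-65860432, plus strand): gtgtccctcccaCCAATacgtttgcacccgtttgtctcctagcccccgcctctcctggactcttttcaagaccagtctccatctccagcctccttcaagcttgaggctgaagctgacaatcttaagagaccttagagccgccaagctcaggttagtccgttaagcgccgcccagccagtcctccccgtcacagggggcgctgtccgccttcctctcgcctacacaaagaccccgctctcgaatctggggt
FANCE (chr6:35452088-35452337, plus strand): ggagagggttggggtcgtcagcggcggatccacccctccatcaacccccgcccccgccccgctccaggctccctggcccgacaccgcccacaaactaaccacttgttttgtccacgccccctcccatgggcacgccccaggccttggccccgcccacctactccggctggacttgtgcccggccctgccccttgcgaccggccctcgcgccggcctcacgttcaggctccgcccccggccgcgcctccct
EXO1 held an E2F word whose first base was base 5 of the transcript, and FANCD2 held one that spanned the start site from base -2. POLQ held the TTTGAA word, read on the opposite strand at base -230 and on its own strand at base 4. FANCF held CCAAT at bases -92 and -52, MUS81 held it at base -238, and FANCE held none of the words. The table had windows for 30 of the 34 genes; RAD54B, FANCI, NBN and RMI2 had none. Across the whole windows, which reach 50 bases past the start site, an E2F word was present for 6 of 30 genes (XRCC2, FANCA, FANCC, FANCD2, EXO1 and RMI1; 20%), against 748 of 11758 genes of the count table (6.36%). All 6 were among the 25 genes with a window that were lower in A549 cells with P. chinensis, and 0 of the 5 genes not called there held one. As 25 of the 30 genes with a window were lower, most of any 6 of them would lie there. The 5 not called include FANCE, which had too few counts to be measured well. These counts thus cannot tell whether the word goes with the fall. CCAAT was present for 14 of 30 genes (46.7%) against 43.3% of the count table's genes, and TTTGAA for 4 of 30 (13.3%) against 14.7%. A second EXO1 window further downstream held none of the words, and the Ensembl annotation starts some transcripts of EXO1, FANCD2 and MUS81 upstream of the RefSeq sites used here.

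In untreated cells the 34 genes together took 0.194% ± 0.00351 of all counts in A549 (SD, n = 3) and 0.1842% ± 0.00228 in Huh7. Per kilobase of transcript, FANCI stood highest in A549 control cells at 39.5 CPM per kb and FANCE lowest at 1.14 CPM per kb. In Huh7 control cells FANCD2 stood highest at 44.7 CPM per kb and FANCM lowest at 2.61 CPM per kb. The edgeR quasi-likelihood test with Benjamini-Hochberg adjustment over all genes tested called 15 of the 34 higher and 5 lower in A549 than in Huh7 control cells at an adjusted p below 0.05. Of all 12924 genes tested in both lines, 33.8% were called higher and 34.9% lower.

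Among the widest gaps between the untreated lines were those of 2 subunits of the resection complex and of BRCA2. RAD50, the ATPase that holds the MRE11 nuclease on DNA ends, read 164, 124 and 152 CPM in A549 control libraries and 50.2, 43 and 40.4 CPM in Huh7, a log2 difference of 1.71 ± 0.13 (adjusted p = 5.77e-11). NBN, its partner in damage signalling, differed by 1.60 ± 0.19 (adjusted p = 1.69e-07) in the same direction. BRCA2, which prepares the cut ends for strand exchange, read 66.3, 108.44 and 109 CPM in A549 and 264, 277 and 271 CPM in Huh7, a log2 difference of -1.51 ± 0.14 (adjusted p = 4.32e-09). The control groups of the lines did not overlap for any of these genes. The other genes higher in Huh7 were RAD51AP1 (-0.97), FANCD2 (-0.83), RAD54L (-0.73) and FANCA (-0.71 on the log2 scale).

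In A549 cells all 3 extracts lowered most of the 34 genes, and none of the 34 was called higher. P. chinensis lowered 29 of the 34 genes, where 17.1% of all 13633 genes tested were called lower and 15.8% higher. B. chinense lowered 26 of the 34 (15% of all genes lower, 13.1% higher), and P. umbellatus lowered 29 of the 34 (14.8% lower, 13.4% higher). Their median log2 fold changes were -1.14, -0.83 and -0.83 in the same order of extracts, beside 0.01, -0.00 and -0.01 over all genes. The 34 genes took 0.1025% ± 0.00636 of all counts with P. chinensis (SD, n = 3), 0.1173% ± 0.00471 with B. chinense and 0.1178% ± 0.00507 with P. umbellatus, each below the 0.194% of the control cells with no overlap of libraries. The 3 comparisons share their control libraries.

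**Figure D1:**
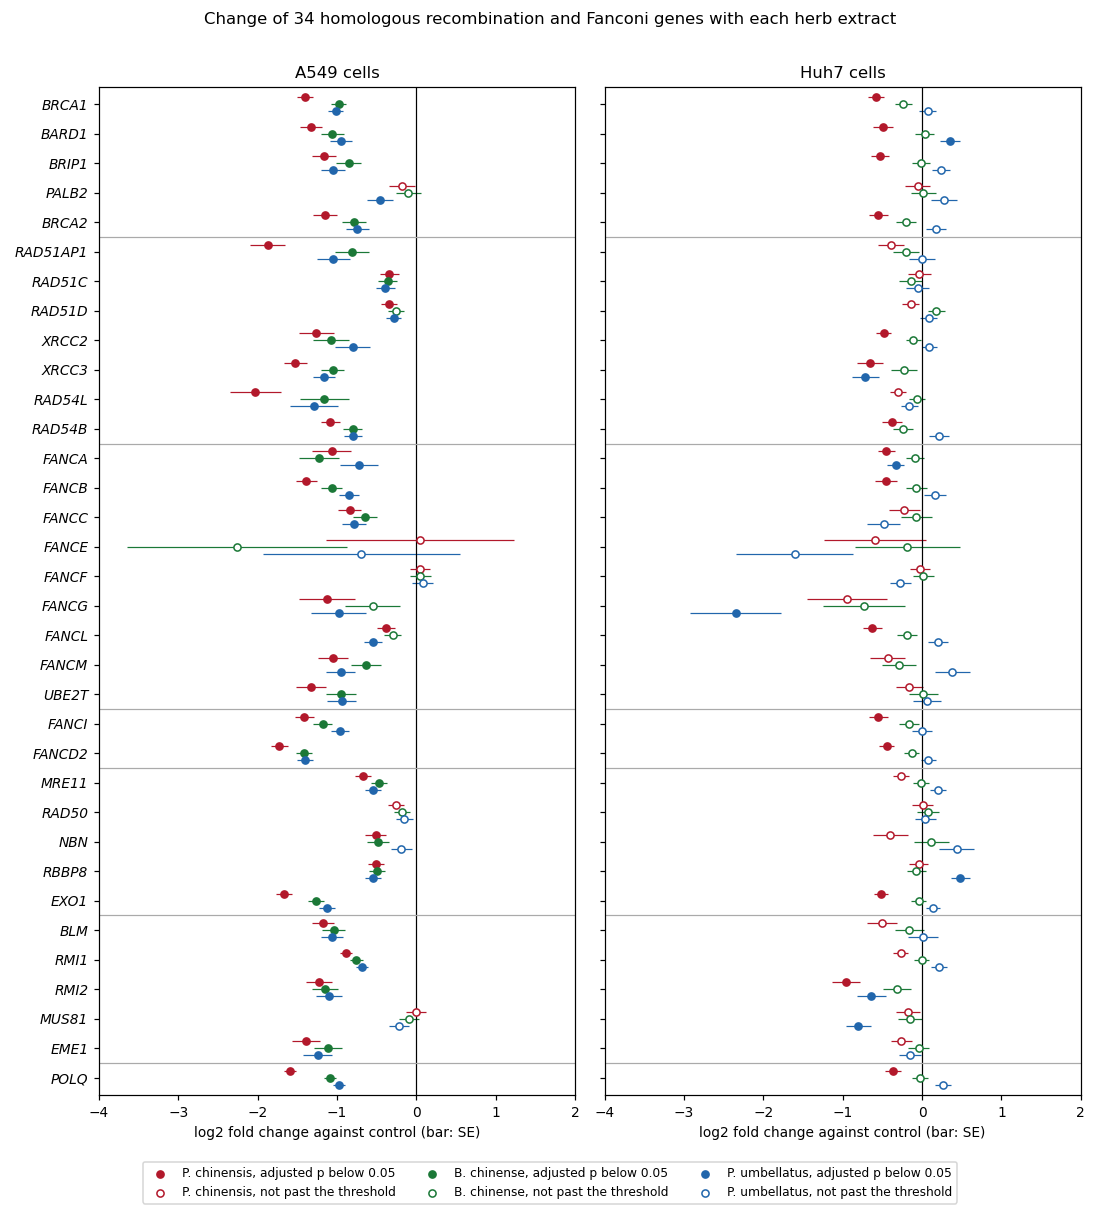
Log2 fold change against control (x axis) of each of the 34 genes (y axis, grouped by role between grey lines) with P. chinensis (red), B. chinense (green) and P. umbellatus (blue) in A549 (left) and Huh7 cells (right); bars are standard errors and filled points passed an adjusted p below 0.05. In A549 cells the filled points number 29, 26 and 29 and all lie left of 0, while in Huh7 cells they number 15, 0 and 7.

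Markers of dividing cells moved with the 34 genes. Of 16 proliferation markers (MKI67, TOP2A, CDK1, CCNB1, CCNB2, CCNA2, CCNE2, PCNA, MCM2, MCM5, CDC6, CDC45, TYMS, RRM2, E2F1 and TFDP1), 15 were lower in A549 with P. chinensis (median log2 fold change -1.37), 15 with B. chinense (-1.01) and 14 with P. umbellatus (-0.98). Their summed level was 4091 to 4235 CPM in A549 control libraries, 1594 to 1888 CPM with P. chinensis, 2093 to 2411 CPM with B. chinense and 2222 to 2291 CPM with P. umbellatus, and none of the 16 was at 0 in any library. In bulk RNA, fewer cells in the cycle and less RNA per cell cannot be told apart, and the part of either in the change of the 34 genes was not tested.

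Among the genes of the BRCA1-BRCA2 axis, 4 of 5 fell with P. chinensis in A549 cells and all but PALB2 fell with every extract. BRCA1 (ENSG00000012048, chr17:43044295-43170245, minus strand of GRCh38, as for the genes below), the ubiquitin ligase that steers breaks towards resection, read 182, 186 and 179.7 CPM in the control libraries and 72.8, 78.2 and 59.7 CPM with P. chinensis. It read 93.7, 83.2 and 107.97 CPM with B. chinense and 86.3, 102 and 92.6 CPM with P. umbellatus. Every treated library lay below every control library. The log2 fold change was -1.40 ± 0.10 with P. chinensis (SE; 2.64-fold lower, adjusted p = 8.48e-08), -0.98 ± 0.10 with B. chinense (adjusted p = 4.64e-06) and -1.02 ± 0.10 with P. umbellatus (adjusted p = 2.54e-06).

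BRCA2 (ENSG00000139618, chr13:32315086-32400268, plus strand) read 66.3, 108.44 and 109 CPM in A549 control libraries and 47.7, 41.2 and 41.2 CPM with P. chinensis. With B. chinense it read 52.8, 57 and 59.2 CPM and with P. umbellatus 56.3, 64.1 and 55.8 CPM. Control replicate 1 was the low library of its group, and it still lay above every treated library. The log2 fold changes were -1.15 ± 0.15 (adjusted p = 3.27e-05), -0.79 ± 0.15 (adjusted p = 0.00109) and -0.74 ± 0.14 (adjusted p = 0.00142). BARD1, the obligate partner of BRCA1, fell by 1.33, 1.06 and 0.95 on the log2 scale for P. chinensis, then B. chinense, then P. umbellatus. BRIP1, a helicase bound by BRCA1, fell by 1.16, 0.86 and 1.05. PALB2, the bridge between BRCA1 and BRCA2, was the exception: it read 32.3, 33 and 38.3 CPM in control libraries and 35.4, 26 and 31.7 CPM with P. chinensis, where the groups overlapped (log2 fold change -0.18 ± 0.16, adjusted p = 0.432). It passed the threshold with P. umbellatus at -0.46 ± 0.16 (adjusted p = 0.0484), a call lost when any library compared other than P. umbellatus replicate 1 was left out (adjusted p 0.064 to 0.171).

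Of the strand exchange genes 7 of 7 fell with P. chinensis, 7 of 7 with P. umbellatus and 6 of 7 with B. chinense. RAD54L (ENSG00000085999, chr1:46246461-46278480, plus strand), a motor protein of strand exchange, had the largest change of any member with P. chinensis. It read 26.3, 22.5 and 26.8 CPM in control libraries and 8.02, 8.53 and 2.09 CPM with P. chinensis, where replicate 3 was the lowest library. With B. chinense it read 11.1, 10.6 and 12.8 CPM and with P. umbellatus 12, 9.48 and 10.04 CPM. None of the treated groups overlapped the control group, and the log2 fold changes were -2.03 ± 0.32 (adjusted p = 0.000183), -1.16 ± 0.30 (adjusted p = 0.0105) and -1.29 ± 0.30 (adjusted p = 0.00486). RAD51AP1, which promotes pairing with the sister, read 22, 14.7 and 18.1 CPM in control libraries and 4.74, 6.03 and 3.99 CPM with P. chinensis, 3.66-fold lower (log2 fold change -1.87 ± 0.22, adjusted p = 1.49e-05).

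The other strand exchange genes divided by size of change. XRCC3 and XRCC2, which sit in different complexes, fell by 1.53 and 1.26 on the log2 scale with P. chinensis. RAD54B, a second motor protein, fell by 1.09. RAD51C, a subunit common to both complexes, read 38.5, 44.4 and 37.8 CPM in control libraries and 33.3, 37.3 and 26.5 CPM with P. chinensis. Its groups did not overlap, but the log2 fold change was only -0.34 ± 0.12 (adjusted p = 0.0386). RAD51D was similar at -0.34 ± 0.10 (adjusted p = 0.014), and with B. chinense it gave -0.25 ± 0.10 (adjusted p = 0.0689). RAD51C lost its call without control replicate 1 or 2 or P. chinensis replicate 1 or 3 (adjusted p 0.0526 to 0.183), and RAD51D without P. chinensis replicate 3 (-0.28, adjusted p = 0.0691). With P. umbellatus RAD51D gave -0.29 ± 0.10 (adjusted p = 0.0382), a call lost when any 1 of the 6 libraries was left out (adjusted p 0.0556 to 0.105). Exons of XRCC3 share 76.7% of their bases with KLC1 on the opposite strand and those of RAD54B 66% with FSBP on the same strand. Smaller overlaps on the opposite strand include those of RAD54L with LRRC41 (19.9%) and of FANCA with ZNF276 (19.6%). The strand setting of the counting is not given in the sources used here.

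Of the Fanconi core complex and its ubiquitin-conjugating enzyme, 7 of 9 genes fell with P. chinensis, 5 of 9 with B. chinense and 7 of 9 with P. umbellatus. FANCB, a scaffold subunit of the core, read 46.2, 39.5 and 38.2 CPM in control libraries and 16.2, 18.6 and 13.1 CPM with P. chinensis. The groups did not overlap, and the log2 fold change was -1.39 ± 0.13 (2.61-fold lower, adjusted p = 1.22e-06). UBE2T, the enzyme that supplies ubiquitin to the core, fell by 1.32, 0.95 and 0.94 on the log2 scale for P. chinensis, then B. chinense, then P. umbellatus. FANCL, the ligase subunit itself, fell less, by 0.38 with P. chinensis and 0.54 with P. umbellatus, and gave -0.30 with B. chinense (adjusted p = 0.0597). The P. chinensis call of FANCL was lost without control replicate 2 or 3 or P. chinensis replicate 2 (adjusted p 0.0545 to 0.075).

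FANCM, the translocase that brings the core to the fork, fell by 1.05 on the log2 scale with P. chinensis, FANCA by 1.07 and FANCC by 0.84. FANCG fell by 1.13 with P. chinensis (adjusted p = 0.0234), a call lost without control replicate 2 or P. chinensis replicate 1 or 3 (adjusted p 0.0863 to 0.095). With P. umbellatus its libraries overlapped the control libraries at -0.98 ± 0.35 (adjusted p = 0.049), and the call was lost without control replicate 1 or 2 or P. umbellatus replicate 1 or 2 (adjusted p 0.0912 to 0.169). FANCF, an adaptor of the core encoded by a single exon, read 21.6, 23.5 and 19.2 CPM in control libraries, 21.1, 26.1 and 20.3 CPM with P. chinensis, 25.6, 21.8 and 20.8 CPM with B. chinense and 21.3, 25.7 and 23.7 CPM with P. umbellatus. All groups overlapped, and the log2 fold changes were 0.04 ± 0.13 (adjusted p = 0.834), 0.05 ± 0.13 (adjusted p = 0.821) and 0.08 ± 0.13 (adjusted p = 0.712). FANCE, which links the core to FANCD2, could not be measured well: its A549 control libraries held 4 to 59 counts and 2 groups included libraries at 0, so its log2 fold change with P. chinensis was 0.05 ± 1.19.

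The clamp that the core modifies, FANCI-FANCD2, fell with every extract. FANCD2 (ENSG00000144554, chr3:10026370-10101932, plus strand) read 132, 123 and 130.2 CPM in A549 control libraries and 37.2, 44.4 and 36.1 CPM with P. chinensis. It read 40.7, 51.8 and 55.1 CPM with B. chinense and 46.1, 53.2 and 51.6 CPM with P. umbellatus. All 9 treated libraries lay below all 3 control libraries. The log2 fold change was -1.73 ± 0.11 with P. chinensis (3.32-fold lower, adjusted p = 2.01e-08), -1.42 ± 0.11 with B. chinense (adjusted p = 2.66e-07) and -1.40 ± 0.10 with P. umbellatus (adjusted p = 2.26e-07). FANCI read 187, 192 and 183 CPM in control libraries and 82.6, 76 and 56.6 CPM with P. chinensis, a log2 fold change of -1.41 ± 0.12 (adjusted p = 3.78e-07). FANCI fell by 1.18 with B. chinense and by 0.96 with P. umbellatus.

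Of the resection genes 4 of 5 fell with P. chinensis, 4 of 5 with B. chinense and 3 of 5 with P. umbellatus. EXO1 (ENSG00000174371, chr1:241847967-241895148, plus strand), which extends resection over long stretches, read 90.8, 80.5 and 86 CPM in control libraries and 25, 28.7 and 28.1 CPM with P. chinensis. With B. chinense it read 36.2, 34.4 and 39.2 CPM and with P. umbellatus 36.9, 38.9 and 46.8 CPM. The groups did not overlap with the control group, at log2 fold changes of -1.67 ± 0.10 (3.17-fold lower, adjusted p = 1.6e-08), -1.26 ± 0.10 (adjusted p = 4.15e-07) and -1.13 ± 0.10 (adjusted p = 9.12e-07). RAD50 read 164, 124 and 152 CPM in control libraries and 130.1, 131 and 113 CPM with P. chinensis, with overlap and a log2 fold change of -0.26 ± 0.10 (adjusted p = 0.0699). Most of its exonic bases, 76.9%, are shared with a gene model without a symbol (ENSG00000283782) on the same strand. MRE11, the nuclease of the complex, fell by 0.67 on the log2 scale, NBN by 0.51 and RBBP8, the cofactor that starts the cut, by 0.51. With P. umbellatus NBN gave -0.19 ± 0.13 (adjusted p = 0.311).

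Of the genes that take joint molecules apart, 4 of 5 fell with each extract and MUS81 with none. EME1, the partner that MUS81 needs as a nuclease, read 20.4, 21.9 and 17.8 CPM in control libraries and 8.99, 6.24 and 7.7 CPM with P. chinensis, without overlap (log2 fold change -1.39 ± 0.18, adjusted p = 3.43e-05). MUS81 read 26.1, 27.1 and 24.1 CPM in control libraries and 29.3, 26.2 and 23 CPM with P. chinensis, overlapping (log2 fold change -0.01 ± 0.12, adjusted p = 0.976). The subunits of this nuclease thus gave different values in the same cells, and the difference between them was not tested. Exons of MUS81 share 13.9% of their bases with CFL1 and those of EME1 16.4% with LRRC59, each on the opposite strand. BLM, the helicase of the dissolution complex, fell by 1.18, 1.04 and 1.06 on the log2 scale for P. chinensis, then B. chinense, then P. umbellatus. Its cofactors RMI1 and RMI2 fell by 0.89 and 1.23 with P. chinensis.

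POLQ (ENSG00000051341, chr3:121431431-121545988, minus strand), the polymerase of an error-prone end-joining route that takes over when recombination fails, had the lowest p of the 34 genes with P. chinensis. It read 132, 128 and 123 CPM in A549 control libraries and 45.4, 45.8 and 37.6 CPM with P. chinensis. It read 61.9, 58 and 64.5 CPM with B. chinense and 64.7, 68.6 and 68.3 CPM with P. umbellatus. The libraries fell into an order without overlap, control above P. umbellatus, B. chinense and P. chinensis, although the difference between B. chinense and P. umbellatus did not pass the test (log2 difference -0.11 ± 0.08, adjusted p = 0.818). The log2 fold changes were -1.60 ± 0.08 (3.02-fold lower, adjusted p = 2.12e-09), -1.09 ± 0.07 (adjusted p = 1.31e-07) and -0.98 ± 0.07 (adjusted p = 2.52e-07).

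**Figure D2:**
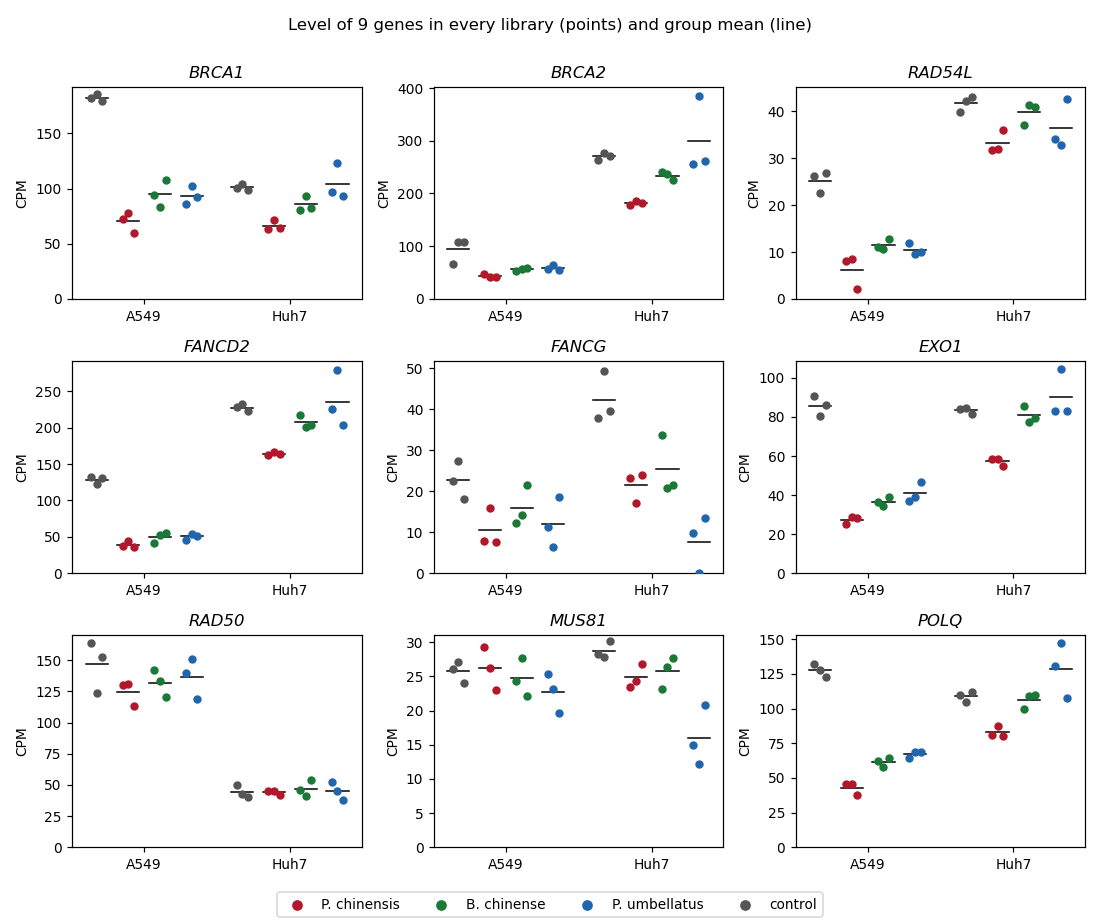
Level in CPM (y axes, each from 0) of 9 of the genes in every library (points) with the group mean (line), for control (grey), P. chinensis (red), B. chinense (green) and P. umbellatus (blue) in A549 and Huh7 cells. BRCA1, RAD54L, FANCD2, EXO1 and POLQ are lower in every treated A549 library than in every control library, while RAD50 and MUS81 overlap. In Huh7, P. umbellatus replicate 2 is the highest library of its group for BRCA2 and listed at 0 for FANCG.

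P. chinensis was compared directly with the mean of the other extracts in A549 cells, a comparison without control libraries. It was lower for 4 of the 34 genes and higher for none, where 2.42% of all genes were called lower and 1.15% higher, and the median of the 34 genes was -0.21. The 4 were RAD51AP1 (-0.94 ± 0.20, adjusted p = 0.0192), POLQ (-0.56 ± 0.07, adjusted p = 0.00084), EXO1 (-0.47 ± 0.09, adjusted p = 0.0113) and BRCA1 (-0.40 ± 0.09, adjusted p = 0.0222). Without A549 P. chinensis replicate 3 only POLQ passed, 1 gene in all, and without replicate 1 RAD51AP1, EXO1 and BRCA1 gave adjusted p of 0.056 to 0.0723, while DESeq2 called 9. Proliferation markers were lower with P. chinensis than with the other extracts for 10 of 16, with a median of -0.36. In the same cells B. chinense was set against P. umbellatus, and edgeR's quasi-likelihood test called 0 of the 34 genes (0.0293% of all genes lower, 0.022% higher), with 1 lower and 2 higher at an unadjusted p below 0.05.

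In Huh7 cells P. chinensis lowered 15 of the 34 genes and raised none, where 10.5% of all 13875 genes tested were called lower and 10.5% higher. The median log2 fold change of the 34 genes was -0.42, beside 0.01 over all genes, and their share of counts was 0.1433% ± 0.00361 (SD, n = 3) against 0.1842% in control cells. Proliferation markers were lower for 10 of 16 (median -0.50), with a summed level of 2549 to 2730 CPM against 3698 to 3801 CPM in control libraries, and their part in the result was not tested. Limma's voom with sample quality weights called 24 of the 34 lower, and a fit of only the 6 libraries compared called 22. The count of 15 comes from a fit that shares its estimate of the spread with the P. umbellatus group, whose replicate 2 stood apart. Over all genes, the fit of 6 libraries called 3013 lower and 2879 higher, against 1451 and 1450. The cause of this move was not tested. Each of the 15 genes below had treated libraries that all lay under the control libraries. As the 15 were chosen by their test on these same libraries, this is no further support. The share of all genes with such a separation was not counted.

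On the BRCA1-BRCA2 axis 4 of 5 genes fell in Huh7 with P. chinensis. BRCA1 read 101, 104 and 99.1 CPM in control libraries and 63.4, 71.1 and 64.2 CPM with P. chinensis (log2 fold change -0.58 ± 0.10, 1.5-fold lower, adjusted p = 0.00182). BRCA2 read 264, 277 and 271 and 178, 185 and 181 CPM (-0.55 ± 0.12, adjusted p = 0.00754). The partners of BRCA1 changed by a like amount. BARD1 read 47.7, 49.7 and 49.4 CPM in control libraries and 35.9, 32.2 and 34.1 CPM with P. chinensis (-0.49 ± 0.12, adjusted p = 0.013). BRIP1 read 45.4, 41.2 and 44 and 28.7, 32.3 and 27.7 CPM (-0.53 ± 0.11, adjusted p = 0.00607).

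Of the strand exchange genes 3 of 7 fell in Huh7 with P. chinensis. XRCC2 read 85.7, 85 and 82.1 CPM in control libraries and 59.9, 60.9 and 56.4 CPM with P. chinensis (-0.48 ± 0.09, adjusted p = 0.00339). XRCC3 read 30.3, 26.4 and 28.1 and 16.1, 19.96 and 16.4 CPM (-0.66 ± 0.16, adjusted p = 0.0133). RAD54B, the weakest of the 15, read 25.9, 24.6 and 22.2 and 18.4, 17.2 and 19.4 CPM (-0.38 ± 0.12, adjusted p = 0.0495), and it lost the call when any 1 of the 6 libraries compared was left out (adjusted p 0.0668 to 0.163). RAD54L and RAD51AP1, the most changed genes in A549, gave -0.30 ± 0.10 (adjusted p = 0.0604) and -0.40 ± 0.16 (adjusted p = 0.112) in Huh7.

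In the Fanconi core 3 of 9 genes fell in Huh7 with P. chinensis, and both clamp genes did. FANCL, the ligase, read 25.9, 26.6 and 27.7 CPM in control libraries and 14.4, 19.96 and 16.4 CPM with P. chinensis (-0.62 ± 0.13, adjusted p = 0.00389). FANCA read 51.2, 62 and 54.5 and 41.4, 40.6 and 37.8 CPM (-0.45 ± 0.11, adjusted p = 0.0108). FANCB read 36.2, 36.5 and 36.6 and 23, 27.1 and 28.2 CPM (-0.46 ± 0.13, adjusted p = 0.0303), a call lost when any 1 of the 6 libraries was left out (adjusted p 0.0521 to 0.105). FANCD2 read 228, 232 and 223 CPM in control libraries and 162, 166 and 164 CPM with P. chinensis (-0.45 ± 0.09, adjusted p = 0.00545). FANCI read 116, 128 and 123 and 76.4, 88.8 and 80.2 CPM (-0.55 ± 0.12, adjusted p = 0.00682).

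The remaining 3 genes that fell in Huh7 with P. chinensis act in resection, dissolution and end joining. EXO1 read 84.2, 84.8 and 81.5 CPM in control libraries and 58.5, 58.4 and 54.8 CPM with P. chinensis (-0.52 ± 0.09, adjusted p = 0.00155). RMI2 had the largest change of the 15, from 14.2, 17.8 and 14.7 CPM to 8.15, 6.96 and 8.3 CPM (-0.96 ± 0.18, 1.94-fold lower, adjusted p = 0.00233). POLQ read 110.2, 104 and 112 and 81.3, 87.5 and 79.9 CPM (-0.36 ± 0.10, adjusted p = 0.0218), and it lost the call without Huh7 P. chinensis replicate 1 or 3 or without control replicate 1 or 3 (adjusted p 0.0579 to 0.0856). XRCC3 lost it without P. chinensis replicate 1 or 3 or control replicate 1 (adjusted p 0.055 to 0.0601), and FANCA without P. chinensis replicate 3 (adjusted p = 0.0512). RAD50, MUS81 and FANCF gave 0.01, -0.18 and -0.03 and did not pass the test, as in A549 cells.

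With B. chinense, edgeR's quasi-likelihood test called 0 of the 34 genes in Huh7 cells, where 0.757% of all genes were called lower and 0.519% higher. At an unadjusted p below 0.05 it found 1 lower gene and 0 higher, DESeq2 called 0, and voom called 2 lower. The correction for GC content and length called 2 lower, and a fit of only the 6 libraries compared called 3. Over all genes, that fit of 6 libraries called 717 lower and 400 higher, against 105 and 72. The count of 0 comes from a fit that shares its estimate of the spread with the P. umbellatus group. The cause of this move was not tested. The median was -0.08, and the log2 fold changes ran from -0.73 to 0.18. BRCA1, the gene of lowest p, read 80.3, 93.7 and 82.7 CPM against 101, 104 and 99.1 CPM in control libraries, without overlap (-0.24 ± 0.10, adjusted p = 0.385). BRCA2 read 239.9, 237 and 225 CPM, also below its control libraries (-0.20 ± 0.12, adjusted p = 0.572). Of the proliferation markers 0 of 16 were called (median -0.12), with a summed level of 3282 to 3458 CPM. The 34 genes took 0.1751% ± 0.00248 of all counts (SD, n = 3).

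With P. umbellatus in Huh7, 5 of the 34 genes were called lower (14.7%) and 2 higher (5.88%). Both shares lay below those of all genes, of which 17.8% were called lower and 19.3% higher. The median was 0.08, beside 0.03 over all genes, but it was -0.03 without replicate 2, -0.00 with voom and -0.08 with the correction for GC content and length. RBBP8 read 72.2, 91.7 and 62.7 CPM with P. umbellatus against 51.1, 58.2 and 55.6 CPM in control libraries (0.48 ± 0.12, adjusted p = 0.00981). BARD1 read 57.3, 76.5 and 51 CPM against 47.7, 49.7 and 49.4 CPM (0.35 ± 0.12, adjusted p = 0.0399). Replicate 2 was the highest library for both, and all 3 treated libraries lay above the control libraries. Without replicate 2, RBBP8 gave 0.32 (adjusted p = 0.014) and BARD1 0.17 (adjusted p = 0.108), so 1 gene was higher and 5 were lower. BARD1 also lost its call without any 1 of the control libraries (adjusted p 0.0882 to 0.106). The number of higher genes also moved to 1 without control replicate 2 or 3, to 4 without P. umbellatus replicate 1 and to 5 without replicate 3, and the number of lower genes to 3 without control replicate 2.

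The 5 lower genes were FANCG, MUS81, XRCC3, RMI2 and FANCA. FANCG had the largest fitted change of the 34, and replicate 2 held 0 counts for it: it read 9.69, 0 and 13.4 CPM with P. umbellatus against 37.8, 49.3 and 39.6 CPM in control libraries (-2.35 ± 0.57, adjusted p = 0.00837). MUS81 read 14.9, 12.2 and 20.8 CPM against 28.3, 27.8 and 30.1 CPM (-0.80 ± 0.16, adjusted p = 0.00331). In each of the 5, chosen by their test on these same libraries, the groups did not overlap, and the share over all genes was not counted. XRCC3, RMI2 and FANCA gave -0.71 ± 0.17 (adjusted p = 0.00781), -0.64 ± 0.18 (adjusted p = 0.0179) and -0.33 ± 0.11 (adjusted p = 0.0339). Without replicate 2 the 5 gave -1.82, -0.65, -0.55, -0.75 and -0.38, each still called, but FANCA lost its call without P. umbellatus replicate 1 or control replicate 2 or 3 (adjusted p 0.0685 to 0.101) and RMI2 without control replicate 2 (adjusted p = 0.0595). Of the proliferation markers 5 were lower and 3 higher (median 0.05), with a summed level of 3531 to 3941 CPM, and their part in the result was not tested. The 34 genes took 0.192% ± 0.0241 of all counts (SD, n = 3), and replicate 2 was the highest library at 0.2193%.

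The changes with P. umbellatus in Huh7 varied with the base composition of the transcripts. Across the 34 genes, Spearman's rho between the GC content of the transcript and the log2 fold change with P. umbellatus in Huh7 was -0.78, and across all genes it was -0.669; genes of the same libraries are not independent, and rho is given as a description. The 8 genes with over 50% GC had a median of -0.60 and the other 26 a median of 0.15. Once each library had been adjusted for the GC content and length of its transcripts the medians were -0.09 and -0.08, and rho was -0.154. XRCC3, at 62.8% GC, went from -0.71 to 0.10, MUS81, at 60.62%, from -0.80 to -0.13, and FANCA from -0.33 to 0.00. FANCG, at 57.75%, was still lower at -1.92 (adjusted p = 0.0102), and RBBP8 still higher at 0.26 (adjusted p = 0.0306). BARD1 went from 0.35 to 0.05 (adjusted p = 0.666) and RMI2 from -0.64 to -0.51 (adjusted p = 0.0593), and neither was called. With the correction BRCA2 (-0.18, adjusted p = 0.0327) and FANCF (-0.41, adjusted p = 0.0406) were called lower, and the calls over all genes went from 2464 lower and 2674 higher to 925 lower and 2269 higher. In the other 5 comparisons with control, rho across the 34 genes lay between -0.19 and 0.06.

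**Figure D3:**
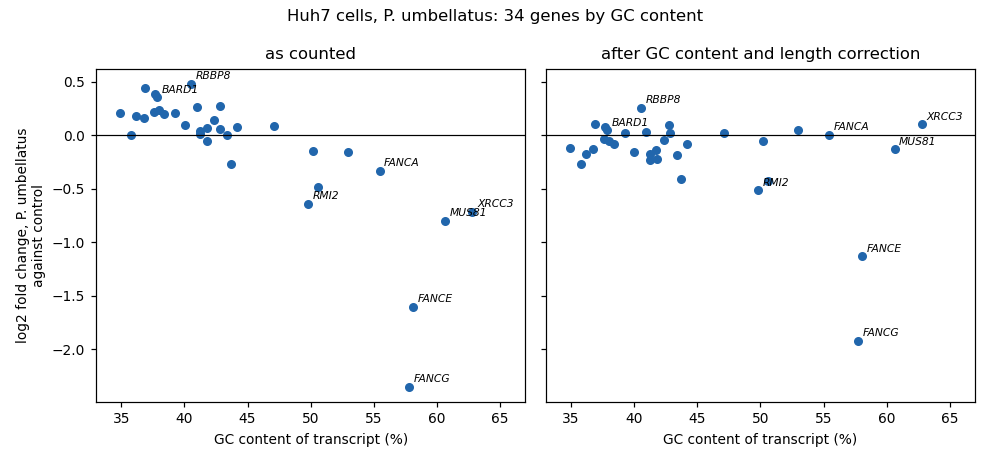
Log2 fold change with P. umbellatus in Huh7 cells (y axis) against the GC content of the transcript in percent (x axis) for each of the 34 genes (points), as counted (left) and after correction for GC content and length (right). On the left the points descend with GC content (Spearman's rho -0.78) and on the right rho is -0.154 and FANCG and FANCE lie lowest.

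Among the extracts in Huh7 cells, P. chinensis was lower than the mean of the other extracts for 16 of the 34 genes and higher for none, where 12.1% of all genes were called lower and 9.69% higher, with a median of -0.36. Without P. umbellatus replicate 2 there were 16 calls as well. B. chinense against P. umbellatus gave 7 lower and 1 higher (14.6% and 12.6% of all genes, median -0.19). The higher gene was MUS81 (0.65 ± 0.16, adjusted p = 0.0157), and RBBP8 was among the lower (-0.55 ± 0.12, adjusted p = 0.0113). This last comparison depended on single libraries: the 8 calls became 1 without Huh7 B. chinense replicate 3, 3 without its replicate 1, 4 without its replicate 2, 5 without P. umbellatus replicate 2, 15 without P. umbellatus replicate 3, and 1 with the GC and length correction.

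The change in A549 was tested against the change in Huh7 for each extract, as an interaction over all 24 libraries. With P. chinensis 15 of the 34 genes had a lower fold change in A549 than in Huh7 and none a higher one, where 9.3% of all genes were called lower and 10.3% higher in this test. With B. chinense 17 were lower and none higher (5.8% and 5.8% of all genes). With P. umbellatus the count was 22 against 1 (15.3% and 19.1%), the 1 being MUS81 at 0.66 ± 0.21 (adjusted p = 0.0185). Without Huh7 P. umbellatus replicate 2 there were 22 calls in all, and with the correction for GC content and length there were 19. The median differences of the 34 genes were -0.57, -0.71 and -0.83. Proliferation markers differed in the same direction for 12, 12 and 13 of 16.

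With P. chinensis the largest differences between the lines fell on 2 strand exchange genes and on FANCD2. RAD54L differed by -1.69 ± 0.33 (adjusted p = 0.00079), RAD51AP1 by -1.43 ± 0.28 (adjusted p = 0.000765), FANCD2 by -1.23 ± 0.15 (adjusted p = 2.72e-06) and POLQ by -1.18 ± 0.13 (adjusted p = 7.81e-07). With B. chinense FANCD2 differed by -1.25 ± 0.15 (adjusted p = 6.14e-06) and EXO1 by -1.18 ± 0.13 (adjusted p = 3.98e-06). XRCC3 differed by -0.81 ± 0.23 (adjusted p = 0.0141) with P. chinensis. BRCA2 did not pass with P. chinensis at -0.55 ± 0.20 (adjusted p = 0.0641), nor did FANCL at 0.30 ± 0.17 (adjusted p = 0.243) or RMI2 at -0.23 ± 0.25 (adjusted p = 0.595), genes that fell in both lines. Across the 34 genes the changes in the 2 lines, which share no libraries, had a Spearman's rho of 0.411, 0.230 and 0.164 for P. chinensis, B. chinense and then P. umbellatus, beside 0.276, 0.155 and 0.0171 across 12924 genes.

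Further genes of recombination and the Fanconi pathway, outside the 34, were counted beside them. Of 41 such genes, 14 were lower and 1 higher in A549 with P. chinensis (median -0.24). There were 14 and 0 with B. chinense (-0.19), and P. umbellatus gave 15 and 0 (-0.21). In the same order, 34.1%, 34.1% and 36.6% of the list were lower, beside 17.1%, 15% and 14.8% of all genes. The shares called higher were 2.44%, 0% and 0%, beside 15.8%, 13.1% and 13.4% of all genes. The only higher gene was SFR1, an accessory factor of strand exchange (0.47, adjusted p = 0.00972). In Huh7 the same 41 genes gave 4 lower and 0 higher with P. chinensis (median 0.02), 0 and 0 with B. chinense, and P. umbellatus gave 6 and 6. The 4 lower genes are 9.76% of the list, near the 10.5% of all genes, and the 6 and 6 are 14.6% each, below the 17.8% and 19.3% of all genes.

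Other repair pathways did not share 1 direction in A549 cells with P. chinensis. Damage signalling genes were lower for 7 of 11 (63.6%, beside 17.1% of all genes, with a median of -0.83), among them CLSPN, an adaptor of the ATR checkpoint (-1.27), and CHEK1, its kinase (-0.83). Mismatch repair genes were lower for 4 of 7 (57.1%, median -0.37). End-joining genes were lower for 5 (41.7%) and higher for 1 (8.33%) of 12, with a median of -0.19. Nucleotide excision repair genes were higher for 4 of 13 (30.8%, beside 15.8% of all genes) and lower for 2 of 13 (15.4%, beside 17.1%), with a median of 0.16. With P. umbellatus in A549 the same list gave 2 higher and 2 lower, 15.4% each way, near the 13.4% higher and 14.8% lower of all genes. With P. chinensis in A549 the damage sensors XPC and DDB2, both known p53 targets, rose by 0.83 (adjusted p = 0.000139) and 0.77 (adjusted p = 1.02e-06). They are 2 of the 4 higher genes of the 13, whose log2 fold changes ran from -1.15 to 0.83. FANCD2 fell by 1.73 in the same libraries, and a part of p53 in these changes was not tested. In Huh7 with P. chinensis excision repair was lower for 4 (30.8%) and higher for 0 of 13, and damage signalling was lower for 5 of 11 (45.5%). Of all genes 10.5% were called lower and 10.5% higher there.

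**Figure D4:**
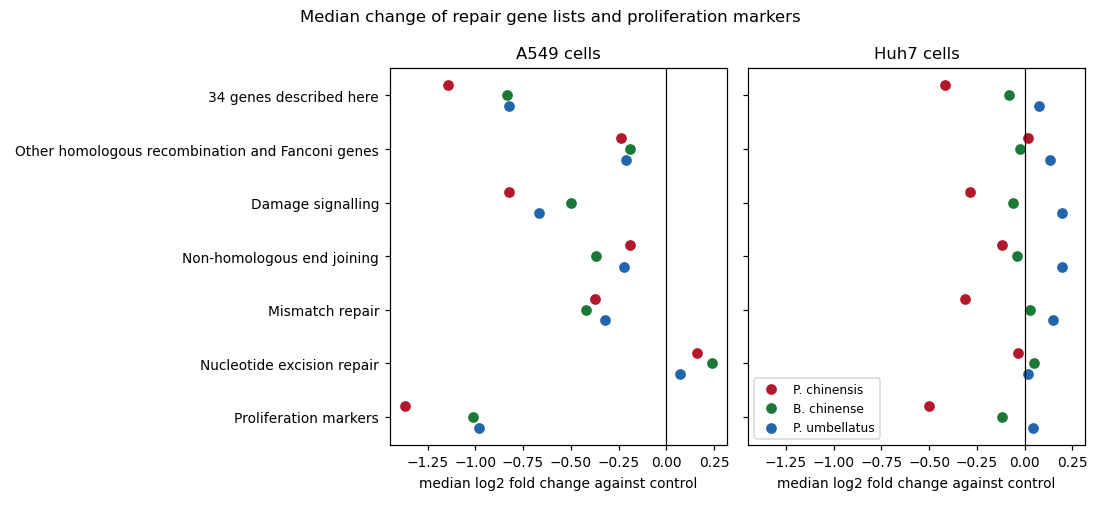
Median log2 fold change against control (x axis, the same scale in both panels) of the 34 genes, 5 other repair lists and the proliferation markers (y axis) with P. chinensis (red), B. chinense (green) and P. umbellatus (blue) in A549 (left) and Huh7 cells (right). In A549 the 34 genes lie at -1.14, -0.83 and -0.83, next to the proliferation markers at -1.37, -1.01 and -0.98, while the further recombination genes lie at -0.24, -0.19 and -0.21.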

How the data were processed

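RNA was sequenced from 24 libraries of A549 and Huh7 cells, 3 in each of 8 groups. Per the labels, ribosomal RNA was removed from total RNA before stranded libraries were made. The authors deposited estimated counts per gene, which they made with kallisto after FastQC, against GRCh38.p13 and the Ensembl annotation; the kallisto version and its strand setting are not given in the sources used here. The counts were whole numbers and were used as deposited. Library totals were 6803704 to 24345541 counts, and a low gene such as FANCE held as few as 0 counts in a library. Gene symbols, positions, transcript lengths and GC content came from a GENCODE annotation of GRCh38, and promoter windows came from RefSeq (GRCh38.p14), of which some genes had more than 1.

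Genes with a mean over 5 counts in the 12 libraries of a line were tested with edgeR 4.0.16 (R 4.3.3) by the quasi-likelihood F-test, with TMM scaling, a prior count of 2 and 1 coefficient per group, so that all 4 groups of a line shared 1 estimate of the spread. Tests were two-sided, p-values were adjusted by the Benjamini-Hochberg method over all genes tested, and an adjusted p below 0.05 was called. Differences between the lines were tested in 1 fit of all 24 libraries over the 12924 genes that passed in both. CPM values were put on 1 scale by TMM over the 24 libraries. CPM per kb divides by the length of the transcript, and gene levels were compared only on that scale. The share of counts of the 34 genes was taken from the counts as deposited. Mean shares are given ± SD.

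The 34 genes and the other lists were chosen with earlier results of these data known. All 34 are accounted for by role. Values in every library were given for the gene with the largest and the gene with the smallest absolute change of each role in A549 cells with P. chinensis, for BRCA1, BRCA2 and FANCD2, for genes called higher with any herb, and for those called in Huh7 cells with P. chinensis. RAD51AP1, FANCG, RAD50 and XPC, among others, were named in addition after their values were seen. The alternatives were DESeq2 1.42.0, limma 3.58.1 with voom and sample quality weights, DESeq2's size factors in edgeR, no filter on low counts, a replicate block, an adjustment of every library by its GC content and length trends with splines with 5 degrees of freedom each, a fit of only the 6 libraries compared, and each library left out in turn. Values of 1 gene of the further recombination list are not reported here. The fits were tested on simulated data. Tables and figures were made with Python 3.11.15, pandas 2.3.3 and matplotlib 3.10.9.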

Additional observations from a re-analysis of the deposited data

Results flagged for a closer look

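For the genes below, the change against control in A549 cells differed from the change in Huh7 cells by the test of the difference itself (the interaction term of edgeR's quasi-likelihood test over all 24 libraries, Benjamini-Hochberg adjusted p below 0.05). Each value is the log2 fold change in A549 minus that in Huh7, so a negative value is a lower relative level after treatment in A549. Proliferation markers differed in the same direction for 12, 12 and 13 of 16 genes for P. chinensis, then B. chinense, then P. umbellatus, and their part in these differences was not tested. The lines differ in tissue of origin and p53 status among other things, which cannot be told apart here.

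With P. chinensis there were 15 such genes. Among all 12924 genes tested for this extract, 9.3% had a lower change in A549 and 10.3% a higher one. On the BRCA1-BRCA2 axis the difference was -0.767 for BRCA1, -0.785 for BARD1 and -0.587 for BRIP1. Among the strand exchange genes the difference was -1.43 for RAD51AP1, -0.814 for XRCC3, -1.69 for RAD54L and -0.66 for RAD54B. In the Fanconi core and its conjugating enzyme the difference was -0.88 for FANCB and -1.12 for UBE2T. In the ubiquitinated clamp the difference was -0.805 for FANCI and -1.23 for FANCD2. In resection the difference was -1.1 for EXO1. Among genes that act on joint molecules the difference was -0.567 for RMI1 and -1.08 for EME1. In end joining the difference was -1.18 for POLQ.

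With B. chinense there were 17 such genes. The background for this extract was 5.8% of all genes in each direction. On the BRCA1-BRCA2 axis the difference was -0.702 for BRCA1, -1.06 for BARD1 and -0.805 for BRIP1. Among the strand exchange genes the difference was -0.929 for XRCC2, -0.786 for XRCC3 and -1.06 for RAD54L. In the Fanconi core and its conjugating enzyme the difference was -1.1 for FANCA, -0.961 for FANCB and -0.926 for UBE2T. In the ubiquitinated clamp the difference was -0.978 for FANCI and -1.25 for FANCD2. In resection the difference was -1.18 for EXO1. Among genes that act on joint molecules the difference was -0.844 for BLM, -0.711 for RMI1, -0.805 for RMI2 and -1.04 for EME1. In end joining the difference was -1.02 for POLQ. RAD54L and XRCC3 with B. chinense lost the call when 1 library was left out in most cases (adjusted p 0.0564 to 0.0887 and 0.0519 to 0.079 where lost).

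With P. umbellatus there were 23 such genes. Differences were common here over all genes too, as 15.3% passed the test on the negative side and 19.1% on the positive side. On the BRCA1-BRCA2 axis the difference was -1.01 for BRCA1, -1.22 for BARD1, -1.21 for BRIP1, -0.656 for PALB2 and -0.84 for BRCA2. Among the strand exchange genes the difference was -0.966 for RAD51AP1, -0.815 for XRCC2, -1.05 for RAD54L and -0.938 for RAD54B. In the Fanconi core and its conjugating enzyme the difference was -0.927 for FANCB, -0.669 for FANCL, -1.26 for FANCM and -0.924 for UBE2T. In the ubiquitinated clamp the difference was -0.875 for FANCI and -1.4 for FANCD2. In resection the difference was -0.666 for MRE11, -0.951 for RBBP8 and -1.18 for EXO1. Among genes that act on joint molecules the difference was -0.993 for BLM, -0.817 for RMI1, 0.656 for MUS81 and -1.02 for EME1. In end joining the difference was -1.16 for POLQ. MUS81 was the only gene with a positive difference, and with the correction for GC content and length it was -0.02. The 22 others also rest on Huh7 changes that varied with GC content, and with that correction 19 genes of the 34 were called. They include Huh7 values from replicate 2, which stood apart, and without that library 22 genes of the 34 were called.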

How the results depend on the processing

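Across 6722 values of single genes under the alternatives, 6316 kept their side of the threshold without a called value changing sign (206 of these were uncalled both ways and had another sign), 247 lost and 155 gained a call, and 4 called values changed sign, all under the correction for GC content and length: with P. umbellatus in Huh7, BRCA2 went from 0.18 to -0.18, XRCC3 from -0.71 to 0.10 and FANCA from -0.33 to 0.0018, and the MUS81 difference between the lines from 0.66 to -0.018. The correction itself removes the part of a change that follows GC content. It also gave 2 lower genes with B. chinense in Huh7 (0 as reported), 3 lower and 1 higher with P. umbellatus (5 and 2), and 1 between those extracts (8). With voom, 24 genes were lower with P. chinensis in Huh7 (15), 2 with B. chinense (0), and 5 differed between B. chinense and P. umbellatus (8). With only the 6 libraries compared, 22 genes were lower with P. chinensis in Huh7 (15) and 3 with B. chinense (0). In the same fit 1 was lower and 0 higher with P. umbellatus (5 and 2). DESeq2 called 9 genes between P. chinensis and the other extracts in A549 (4). The cause of these moves was not tested.

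Libraries were left out 1 at a time, only from the groups compared and not from other groups that share the estimate of the spread. Leaving them out gave 26 to 28 lower genes in A549 with P. chinensis, 23 to 26 with B. chinense and 24 to 26 with P. umbellatus. In Huh7 it gave 10 to 14 with P. chinensis, 0 to 0 with B. chinense, and 3 to 6 lower and 1 to 5 higher with P. umbellatus. Between extracts it gave 1 to 5 calls for P. chinensis against the others in A549, 11 to 19 in Huh7, and 1 to 15 for B. chinense against P. umbellatus in Huh7. Between the lines it gave 14 to 17, 12 to 19 and 21 to 25 calls for P. chinensis, then B. chinense, then P. umbellatus, and 17 to 20 between the controls.

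The labels number the replicates 1 to 3 in every group, but the numbers did not pair the samples: 0 of 18 pairs in either line had deviations correlated over 0.1. With a replicate block, 29, 26 and 26 genes were lower in A549 for P. chinensis, then B. chinense, then P. umbellatus, and 16, 0 and 5 in Huh7, with 1 higher with P. umbellatus. Depth limits FANCE, which had libraries at 0 counts, and no dose or time is known for any comparison.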
